A study of Mus musculus with 8 samples.

Results

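The 7 genes described here, Nfkbia, Nfkbiz, Ikbke, Birc3, Traf1, Ier3 and Socs3, encode regulators that feed back on NF-κB and cytokine signalling. They were taken by name from a table of 10970 genes, with earlier results of these data known. Shares of members called, set beside those of all genes, are therefore a description. All 7 passed the filter on low counts and were among the 8478 genes tested. They were measured by SCRB-seq, a plate-based single-cell method that counts each captured transcript once through a unique molecular identifier (UMI), in neutrophils taken from the peripheral blood (PB) or from the bone marrow (BM).

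The mice were of the C57BL/6J background, and the study's methods give males of 7 to 12 weeks. Donor mice received PBS or LPS intraperitoneally, LPS at 0.5 mg/kg. The sample labels place PBS samples at 0 h and LPS samples at 4 h, whereas the methods describe cells prepared 4 h after either injection. Neutrophils were enriched by removing other cells with a commercial kit and picked singly by mouth pipette. Each of the 4 groups (PBS-primed PB, LPS-primed PB, PBS-primed BM and LPS-primed BM neutrophils) has 2 labelled samples, each on its own plate, with 711 cells in all. These are batch 7. A further 710 cells on 9 plates, batch 6, carry only a group in their names. They are given as 1 value per plate without a test. Nothing in the labels says that the 2 samples of a group came from separate mice, so p-values measure the spread between these samples, which may be technical.

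NF-κB proteins wait in the cytoplasm bound to IκB proteins. LPS, sensed by Toll-like receptor 4, activates a kinase complex that marks IκB for destruction, and the freed NF-κB switches on inflammatory genes. Among those genes are its own brakes and survival factors, so their transcripts serve as a record of recent signalling. Socs3 belongs to a parallel loop, in which STAT3, activated by cytokines such as IL-6 and G-CSF, induces an inhibitor of the same receptors.

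Reference promoters (RefSeq, 250 bases before to 50 after the start) were found for 6 of the 7 genes, not for Nfkbiz, and each matched the mm9 genome exactly once. They were searched on both strands for the consensus κB motif bound by NF-κB and for TTCNNNGAA, the core recognised by STAT proteins. A κB motif stood in 8.46% of 32851 RefSeq promoters of this length, and among the members in those of Nfkbia and Ier3. TTCNNNGAA stood in 8.30% of these promoters, and among the members in that of Socs3. The 3 windows are shown because they hold the only matches in the members' promoters, 5′ to 3′ on the gene's strand with the match in capitals. A match of letters is a description and shows no binding. The Nfkbia window lies at chr12:56593644-56593673 (mm9, minus strand), with the match 29 to 20 bases before the start. The Ier3 window lies at chr17:35958556-35958585 (plus strand), with the match 92 to 83 bases before the start. Both are upstream of the annotated genes. The Socs3 window lies at chr11:117830815-117830844 (minus strand), with the match 154 to 146 bases before the start and between exons of an annotated transcript.
Nfkbia: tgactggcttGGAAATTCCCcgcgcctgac
Ier3: tgcgaagggcGGAGTTCCCCccggcccggc
Socs3: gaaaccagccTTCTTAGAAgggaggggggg

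Samples of batch 7 held 83 to 92 cells and between 3240559 and 8361677 UMIs, with medians of 32295 to 76133 UMIs per cell. Levels are given in CPM, the UMIs of a gene over all cells of a sample scaled to a common total per sample. Neutrophil markers summed to 271850 to 428629 CPM in LPS-primed PB and all BM plates and to 122156 to 182596 CPM in PBS-primed PB plates. This sum followed its most abundant genes, S100a8 and S100a9, and is not a share of neutrophils. Csf3r of the same list went the other way, at 4970 to 7045 CPM in PBS-primed PB and 692 to 2829 CPM elsewhere. Every cell held over 1000 CPM of these markers. PBS-primed PB plates also held more lymphocyte transcripts: the 10 T or NK cell markers summed to 379.7 to 1152 CPM there and to 1.87 to 43.6 CPM elsewhere, the 5 of 8 B cell markers in the table to 80.5 to 202 CPM against 0 to 96.3 CPM, and 21 of the 26 cells with over 1000 CPM of B or of T or NK markers lay on them. The 5 platelet markers summed to 295 to 2827 CPM in PBS-primed blood and 1.66 to 128 CPM in LPS-primed blood, and 7 hepatocyte markers to 905 to 2490 CPM in batch 7 blood and at most 97.3 CPM elsewhere. Of 10 monocyte or macrophage markers 8 were in the table, and they summed to 975 to 1686 CPM in LPS-primed and 234 to 778 CPM in PBS-primed blood. Ly6c2 (640 to 1370 against 84.8 to 193 CPM) and Fcgr1 (114 to 218 against 0.188 to 5.68 CPM) were higher in LPS-primed blood. Ccr2, Cx3cr1 and F13a1 were at 0 in all LPS-primed blood, and Csf1r, Adgre1 and Ms4a6c overlapped. The part of these transcripts in the results was tested only for cells bearing lymphocyte markers. Fold changes are on the TMM scale of edgeR, which sets 1 scaling factor per sample to offset RNA composition and removes no transcripts of other cells. Choosing it gave PBS-primed PB samples factors of 1.35 and 1.37 against 0.748 and 0.694 in LPS-primed PB samples. This choice weighs on the blood comparison: the median log2 change over all genes was −0.11 by TMM but −1.02 by library size alone, and the 334 genes called (294 higher, 40 lower) became 408 (140 higher, 268 lower).

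In batch 7, 5 of the 7 regulators were called higher after LPS in blood. Nfkbia, Nfkbiz, Ikbke, Birc3 and Ier3 were higher in LPS-primed than in PBS-primed PB neutrophils at an adjusted p under 0.05 (edgeR quasi-likelihood test, two-sided, Benjamini-Hochberg over all 8478 genes). For comparison, 3.47% of all genes tested were called higher. All 7 had both LPS samples above both PBS samples in CPM, which held for 11.4% of all genes. With library size alone 2 of the 5 remained called, Nfkbia and Ier3. In batch 6, Nfkbiz was lower in LPS-primed than in PBS-primed blood (284 and 296 against 629 and 556 CPM). Its log2 ratio there was 0.07 on the TMM scale. Socs3 was also lower in CPM in batch 6 (244 and 206 against 305 and 361).

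**Figure D1:**
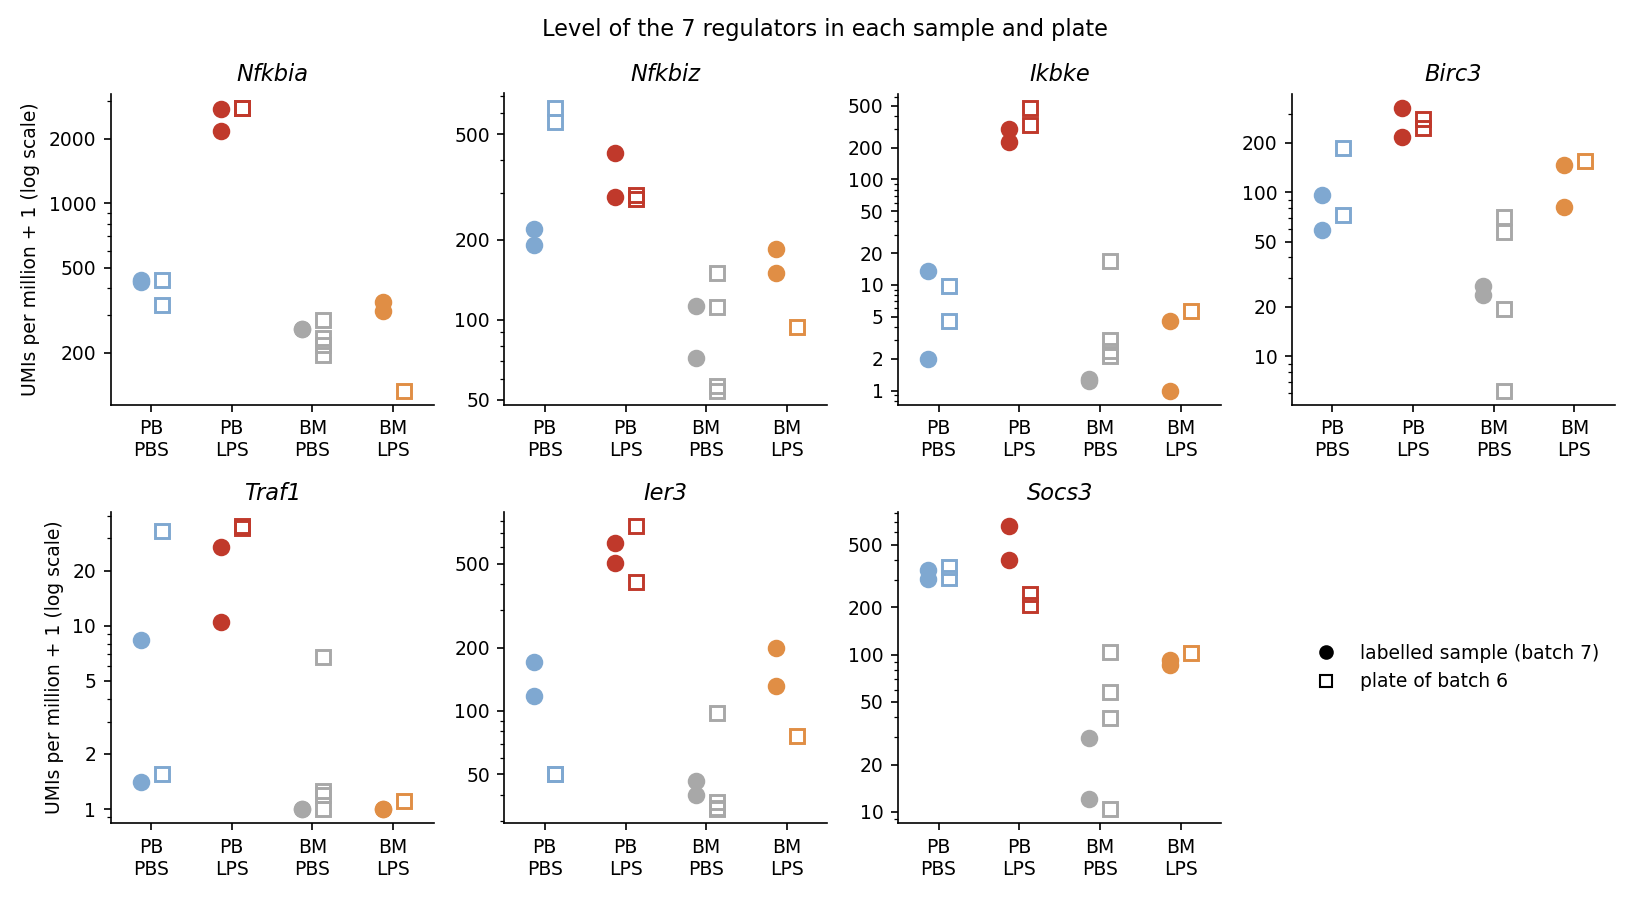
Level of each regulator (CPM plus 1, log axis) in the 4 groups, with filled circles for the 8 labelled samples of batch 7 and open squares for the 9 plates of batch 6. Nfkbia, Ikbke and Ier3 in LPS-primed blood lie above every other sample and plate, whereas Nfkbiz and Socs3 in batch 6 are higher in PBS-primed than in LPS-primed blood.

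Nfkbia encodes IκBα, the inhibitor that carries NF-κB back out of the nucleus, and lies on chromosome 12 (56590398 to 56593634, mm9, minus strand). In blood it stood at 428 and 438 CPM after PBS and at 2768 and 2176 CPM after LPS. In marrow it stood at 258 CPM in both PBS samples and at 313 and 344 CPM after LPS. The LPS-primed blood samples stood far above the other 6, and no 2 groups overlapped. In batch 6 it was 437 and 335 CPM in PBS-primed blood, 2787 and 2795 CPM in LPS-primed blood, 196 to 283 CPM on the 4 PBS-primed BM plates and 133 CPM on the LPS-primed BM plate. The rise in blood was thus present on every plate of both batches, and the marrow plates differed in direction between batches. The log2 fold change in blood was 3.42 (SE 0.23, edgeR adjusted p = 8.1e-06), with a batch 6 ratio of 3.97 on the same scale. In marrow it was 0.16 (SE 0.21, edgeR adjusted p = 0.98). The blood call held in all 16 alternatives, with log2 changes from 2.51 to 3.60.

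Nfkbiz encodes IκBζ, an atypical IκB that acts in the nucleus as a cofactor for a second wave of genes, and lies on chromosome 16 (55811488 to 55839012, minus strand). In blood it stood at 218 and 190.1 CPM after PBS and at 423 and 289.5 CPM after LPS, and in marrow at 111 and 70.6 CPM after PBS and at 149 and 184 CPM after LPS. LPS samples were above PBS samples in both tissues. In batch 6 the order in blood was turned: 629 and 556 CPM in PBS-primed against 284 and 296 CPM in LPS-primed cells. The marrow plates of batch 6 held 53.1 to 149 CPM after PBS and 93.2 CPM after LPS. The LPS-primed blood plates of batch 6 thus lay near the lower LPS sample of batch 7, and the PBS-primed levels differed between batches by more than the spread within either. The log2 fold change in blood was 1.70 in batch 7 (SE 0.37, edgeR adjusted p = 0.028). In batch 6 the ratio was −1.03 on the CPM scale and 0.07 on the TMM scale. With both batches and a batch term the change was 0.99 and no longer called (edgeR adjusted p = 0.15). The call was also lost with library size alone (0.80, edgeR adjusted p = 0.25), without the cells bearing lymphocyte markers (1.41, adjusted p = 0.067) and without any 1 of 4 samples, PBS-primed PB 1 or 2, LPS-primed PB 1 or LPS-primed BM 1 (adjusted p from 0.057 to 0.20).

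Ikbke encodes IKKε, an inducible relative of the IκB kinases that also acts on interferon regulatory factors, and lies on chromosome 1 (133150920 to 133176183, minus strand). It was nearly silent outside LPS-primed blood. Blood held 0.992 and 12.7 CPM after PBS and 296 and 224 CPM after LPS. Marrow held 0.287 and 0.239 CPM after PBS and 0 and 3.53 CPM after LPS. In batch 6 the 2 LPS-primed blood plates held 324 and 477 CPM and the other 7 plates between 1.13 and 15.96 CPM. LPS-primed blood thus stood apart from every other plate. The log2 fold change in blood was 6.20 (SE 1.44, edgeR adjusted p = 0.039), and that between LPS-primed PB and LPS-primed BM was 7.74 (SE 1.55, edgeR adjusted p = 0.017). The size of the latter rested on LPS-primed BM 2, where 1 cell held 69.0% of the 29 UMIs: it was 6.75 without LPS-primed BM 1 and 14.1 without LPS-primed BM 2, the second a fitted value against a sample with no UMI and no bound. The blood contrast rested on few UMIs in the controls, 5 and 41, and 34 of the 41 came from 1 cell bearing lymphocyte markers. Without all cells bearing such markers the second sample fell to 2.41 CPM and the log2 change was 8.08 (edgeR adjusted p = 0.0085). The call was lost without PBS-primed PB 1 or 2 (adjusted p = 0.21 and 0.089) and with library size alone (5.27, adjusted p = 0.071).

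Birc3 encodes cIAP2, a ubiquitin ligase bound to TRAF proteins that limits cell death, and lies on chromosome 9 (7848699 to 7873186, minus strand). In blood it stood at 57.9 and 95.4 CPM after PBS and 326 and 215 CPM after LPS. In marrow it stood at 22.7 and 25.7 CPM after PBS and 80.3 and 144 CPM after LPS. Both tissues thus had LPS samples above PBS samples without overlap, and the LPS-primed marrow samples overlapped those of PBS-primed blood. Batch 6 held 185 and 71.7 against 244 and 276 CPM in blood, and 5.20 to 69.7 against 154 CPM in marrow. The log2 fold change was 2.73 in blood (SE 0.49, edgeR adjusted p = 0.0093) and 2.03 in marrow (SE 0.47, unadjusted p = 0.0014, edgeR adjusted p = 0.26). The blood call was lost without PBS-primed PB 1 or 2 (adjusted p = 0.11 and 0.052) and with library size alone (1.82, adjusted p = 0.067). The marrow change was called with both batches and a batch term (1.91, edgeR adjusted p = 0.024).

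Traf1, an adaptor of TNF receptors induced by NF-κB and a partner of cIAP2, lies on chromosome 2 (34797270 to 34817292, minus strand). In batch 7 it had the fewest UMIs of the 7 in LPS-primed blood, with 2 and 24 UMIs in blood after PBS (0.397 and 7.41 CPM) and 166 and 56 UMIs after LPS (25.9 and 9.52 CPM). No UMI of it was seen in the 4 marrow samples. LPS-primed blood was at least 96.3-fold above LPS-primed marrow in batch 7, taking 3 UMIs over both marrow samples as the floor and counting error only. This bound leaves out the spread between cells and samples. A single cell held 58 of the 166 UMIs of LPS-primed PB 1, and another held 42 of the 56 UMIs of LPS-primed PB 2. The fitted contrast of the same groups was not called (edgeR adjusted p = 0.18). The log2 change in blood was 3.08 with an SE of 2.46 and was not called (edgeR adjusted p = 0.58). In PBS-primed PB sample 2, 79.2% of its UMIs lay in 1 cell bearing lymphocyte markers. Without all cells bearing such markers Traf1 stood at 1.72 CPM there. In batch 6, LPS-primed blood held 34.0 and 33.4 CPM and PBS-primed blood 31.9 and 0.563 CPM, and a single cell held 73.3% of the UMIs of the higher PBS plate. The batch 6 marrow plates held 0 to 5.78 CPM after PBS and 0.1097 CPM after LPS, so that 1 PBS-primed marrow plate lay above the lower PBS-primed blood plate.

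Ier3, an immediate early gene of stress and NF-κB signalling that modulates survival, lies on chromosome 17 (35958629 to 35959868, plus strand). In blood it stood at 117 and 169 CPM after PBS and 624 and 502 CPM after LPS, and in marrow at 45.6 and 38.7 CPM after PBS and 198 and 130.3 CPM after LPS. LPS samples were above PBS samples in both tissues, and LPS-primed marrow overlapped PBS-primed blood. Batch 6 held 49.1 and 49.3 against 752 and 406 CPM in blood, and 33.3 to 96.5 against 75.5 CPM in marrow, where 1 PBS plate was above the LPS plate. The log2 fold change was 2.88 in blood (SE 0.36, edgeR adjusted p = 0.00094), with a batch 6 ratio of 4.71, and it was called in all 16 alternatives. In marrow it was 1.77 (SE 0.35, unadjusted p = 0.00036, edgeR adjusted p = 0.15).

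Socs3, the cytokine-induced inhibitor of receptors that signal through gp130 and of the G-CSF receptor, lies on chromosome 11 (117827393 to 117831361, minus strand). In blood it stood at 346 and 299.9 CPM after PBS and 657 and 399 CPM after LPS, and in marrow at 28.4 and 11.1 CPM after PBS and 92.1 and 85.0 CPM after LPS. Blood stood above marrow whatever the treatment, and each LPS group stood above its PBS group. In batch 6 blood the order was again turned, with 305 and 361 CPM after PBS and 244 and 206 CPM after LPS. Marrow held 9.42 to 104 CPM on the PBS plates and 101 CPM on the LPS plate. The log2 change with LPS in blood was 1.61 (SE 0.43, edgeR adjusted p = 0.070), and the batch 6 ratio was −0.56 on the CPM scale and 0.54 on the TMM scale. It was called in 5 of the 16 alternatives, DESeq2 among them (1.52, adjusted p = 0.0083). In marrow the change was 1.99 (SE 0.44, unadjusted p = 0.00091, edgeR adjusted p = 0.21).

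**Figure D2:**
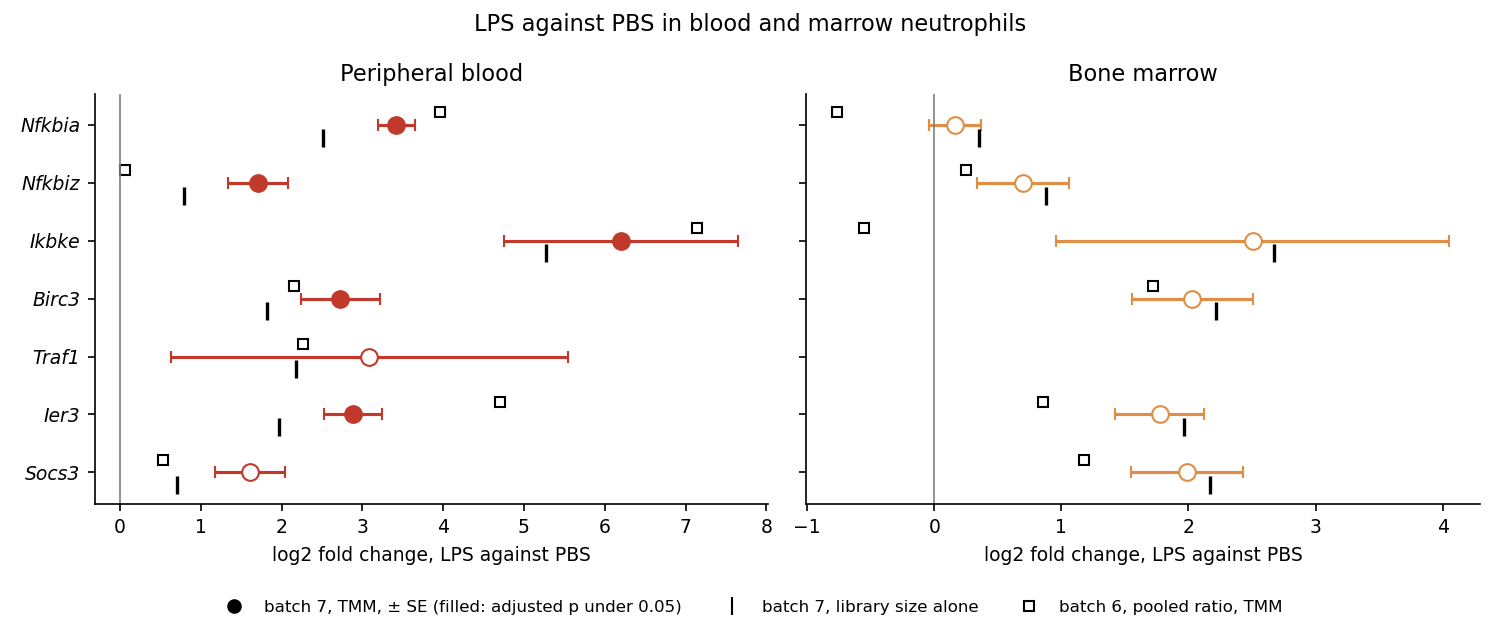
Log2 fold change of LPS against PBS in blood and marrow, with circles for batch 7 on the TMM scale (bars: SE, 2 samples a group, filled where the adjusted p is under 0.05), ticks for library size alone and squares for the pooled batch 6 ratio on the TMM scale. The 5 filled circles are in blood, none is in marrow, and Nfkbiz in batch 6 blood lies close to 0 (0.07); Traf1 has no UMI in the marrow samples and is left out there.

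In marrow, edgeR called none of the 7 members between LPS-primed and PBS-primed neutrophils, against 0.0708% of all genes. At an unadjusted p under 0.05 there were 3, Birc3, Ier3 and Socs3, and 684 of all 8478 genes. DESeq2 called the same 3, with log2 changes of 1.99, 1.74 and 1.95. DESeq2 called 196 genes in this comparison where edgeR called 6. Both LPS samples were above both PBS samples for Nfkbia, Nfkbiz, Birc3, Ier3 and Socs3, which held for 25% of all genes.

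The LPS effect differed between blood and marrow for Nfkbia alone among the members (log2 difference 3.26, SE 0.30, edgeR adjusted p = 0.00020), against 1.5% of all genes called. This call held in all 16 alternatives, with differences from 2.16 to 3.70. The differences were 1.01 for Nfkbiz (SE 0.51), 0.70 for Birc3 (SE 0.65), 1.11 for Ier3 (SE 0.48) and −0.38 for Socs3 (SE 0.60), with edgeR adjusted p from 0.35 to 0.89. With library size alone those of Nfkbiz and Birc3 turned to −0.08 and −0.40, that of Ier3 fell to 0.0073 and that of Socs3 went to −1.46, as the median over all genes moved from −0.17 to −1.24 and the calls over all genes from 123 higher and 4 lower to 45 higher and 19 lower. That of Ikbke was 3.69 (SE 2.20, adjusted p = 0.51) and became 5.88 (edgeR adjusted p = 0.025) with both batches and a batch term. Leaving out 1 sample moved it from 2.71 (without LPS-primed BM 1) to 10.07 (without LPS-primed BM 2), it was 6.36 without PBS-primed PB 2, and it was called in none of these. Of the 5 members called in blood and not in marrow, the effects of Nfkbiz, Ikbke, Birc3 and Ier3 were thus not shown to differ between tissues in batch 7.

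Without LPS, Socs3 was the only member called between tissues, higher in PBS-primed PB than in PBS-primed BM neutrophils (log2 difference 3.52, SE 0.47, edgeR adjusted p = 0.0024), against 1.18% of all genes called higher. This held in all 16 alternatives, with differences from 2.69 to 4.31. Ier3 had a difference of 1.24 (SE 0.34, edgeR adjusted p = 0.10) and was called in 4 alternatives. Nfkbia differed by 0.23 (SE 0.21, edgeR adjusted p = 0.62). Over all genes 100 were called higher and 121 lower in PBS-primed blood, and 213 and 84 with library size alone. All 7 members had both blood samples above both marrow samples, which held for 34.6% of all genes. On the PBS-primed plates without sample labels, blood and marrow overlapped for Ier3, Ikbke and Traf1. The pooled log2 ratio of blood to marrow there, on the TMM scale, was −0.28 for Ier3 and −0.70 for Ikbke. It was positive for the other members, from 0.24 for Nfkbia to 3.63 for Traf1. These ratios are given without a test.

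After LPS, 5 members were called higher in PB than in BM neutrophils, Nfkbia (3.49, SE 0.23), Ikbke (7.74), Socs3 (3.14), Ier3 (2.36) and Nfkbiz (1.66), against 3.27% of all genes called higher (277 higher and 39 lower, and 157 and 106 with library size alone). All 7 had both PB samples above both BM samples, which held for 16.4% of all genes. Birc3 was 1.83 higher (SE 0.47, edgeR adjusted p = 0.062). Traf1, without a UMI in the marrow samples, was not called (edgeR adjusted p = 0.18). Nfkbia, Ikbke and Socs3 were called in all 16 alternatives. Ier3 was not called without LPS-primed BM 2 (edgeR adjusted p = 0.057), and Nfkbiz was lost in 7 alternatives, 5 of which leave out a sample (edgeR adjusted p from 0.052 to 0.30 among those 5). This comparison and the blood comparison share the LPS-primed PB samples.

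Single cells were compared after each was thinned to 5000 UMIs, since blood and marrow cells differed in depth. A UMI of Nfkbia was then found in 90.1% (exact 95% interval 82.1 to 95.4) and 76.7% (66.4 to 85.2) of LPS-primed PB cells, against 40.0% and 39.5% in PBS-primed PB, 30.1% and 42.4% in PBS-primed BM and 42.9% and 41.3% in LPS-primed BM cells. Without thinning it was found in 98.9% and 100% of LPS-primed and in 77.8% and 79.1% of PBS-primed PB cells. Intervals cover counting error within a sample and not the spread between samples.

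Ier3 was found after thinning in 67.0% and 45.3% of LPS-primed and 15.6% and 16.3% of PBS-primed PB cells. Ikbke was found in 39.6% and 24.4% of LPS-primed and in 0% and 2.33% of PBS-primed PB cells. Without thinning these shares were 81.3% and 61.6% after LPS and 5.56% and 8.14% after PBS. Birc3 was found in 47.3% and 27.9% against 12.2% and 14.0%. For these 4 genes the shares in LPS-primed blood were thus above those in PBS-primed blood in both samples. Nfkbiz was found in 36.3% and 31.4% of LPS-primed and in 26.7% and 31.4% of PBS-primed PB cells, and Socs3 in 71.4% and 46.5% against 42.2% and 43.0%. Both LPS samples for Nfkbiz, and 1 of them for Socs3, lay within the intervals of the PBS samples. Traf1 was found in 7.69% and 2.33% against 0% and 2.33%, near the level of single UMIs. The 4 marrow samples held no UMI of it in any cell, with or without thinning, which allows a share of cells with a UMI (not of cells expressing it) of up to 3.26 to 3.61% per sample, counting 3 cells. On 1 PBS-primed BM plate of batch 6 it was found in 13 of 44 cells without thinning, and on the other 4 marrow plates in at most 1 cell each.

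**Figure D3:**
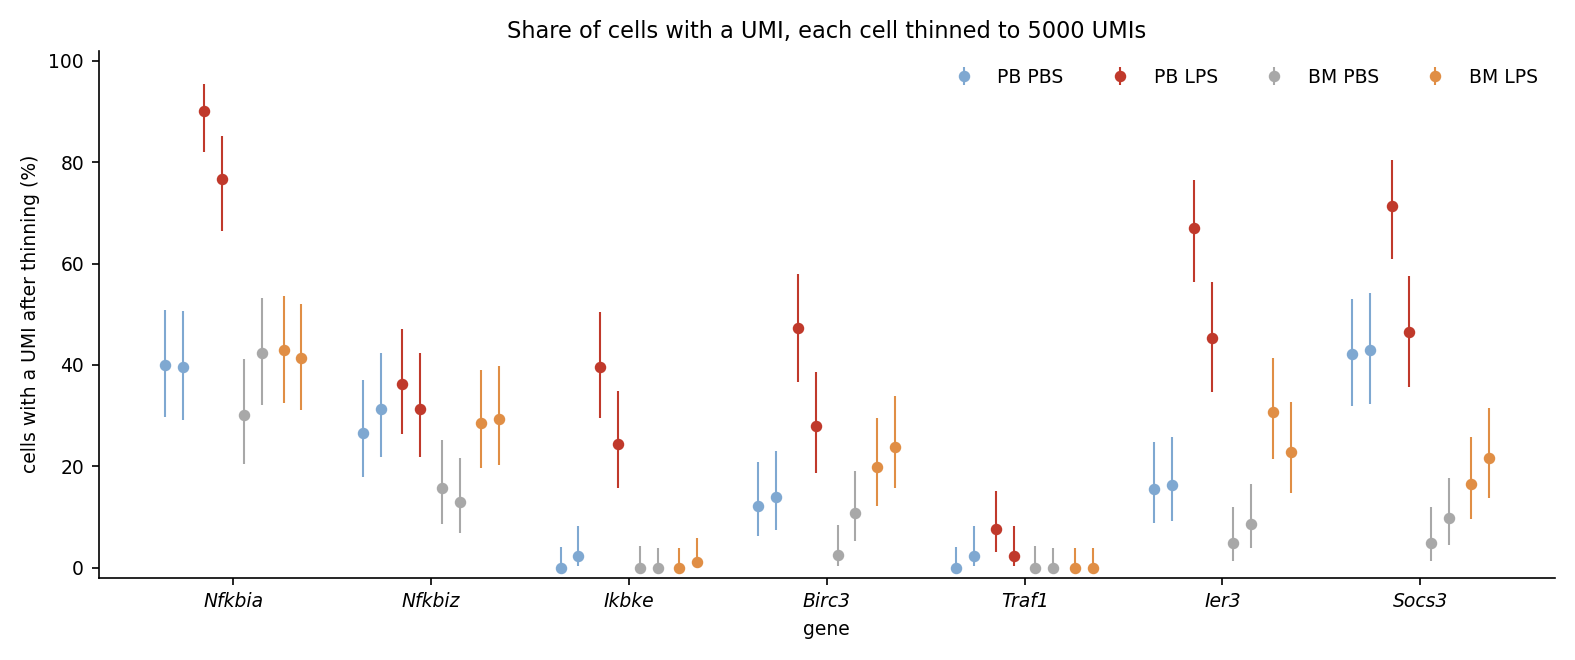
Share of cells with at least 1 UMI of each gene (%) after thinning each cell to 5000 UMIs, 1 point per labelled sample with its exact 95% interval (counting error only), by group. Nfkbia reaches 90.1% and 76.7% of LPS-primed blood cells, Ier3 67.0% and 45.3%, while Ikbke and Traf1 stay at or under 2.33% outside LPS-primed blood.

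In LPS-primed blood, some cells held most of the regulators. After thinning, 5 or more of the 7 were present in 26.4% and 4.65% of LPS-primed PB cells of batch 7 and in 26.3% and 14.3% of those of batch 6, and in no cell of any other plate. The share expected from the single genes was not computed, so these shares are no measure of co-expression. A cell without any of them was rare in LPS-primed blood (0% and 4.65% in batch 7) and common in PBS-primed marrow (51.8% and 39.1%). Within a plate the members tracked each other weakly. Spearman's rho between their CPM over the 86 to 95 cells of an LPS-primed blood plate ran from −0.09 to 0.47 over the pairs and the 4 plates, with the highest value for Nfkbia and Ier3 on 1 plate of batch 6. Cells of a plate share a library and CPM of few UMIs are coarse, so these values are a description.

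The authors' annotation divides the cells into clusters, which were made from the expression of these same cells and give no independent test. PBS-primed PB cells lay almost wholly in cluster 1 (89 of 90 and 85 of 86 in batch 7). LPS-primed PB cells of batch 7 were mixed, with 48 of 91 and 35 of 86 in cluster 1 and 42 and 42 in cluster 2, whereas those of batch 6 were nearly all in cluster 2 (94 of 95 and 91 of 91). Nfkbia stood at 1570 and 618 CPM in cluster 1 and at 3719 and 2904 CPM in cluster 2 of the 2 LPS-primed PB samples. Ikbke stood at 107 and 93.8 CPM in cluster 1 and at 445 and 291 CPM in cluster 2. Birc3, Ier3 and Nfkbiz were also higher in cluster 2 in both samples.

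Socs3 went the other way. In the LPS-primed PB samples it stood at 913 and 822 CPM in cluster 1 and at 472 and 250.3 CPM in cluster 2. The batch 6 plates, in cluster 2, held 224 and 206 CPM, and the PBS-primed PB cells of cluster 1 held 346 and 307 CPM in batch 7. The LPS-primed cells of cluster 1 thus had the highest Socs3 of any blood cells, and those of cluster 2 ranged from below to above the PBS level. Batch and cluster moved together for this gene, and the part of either in the difference between batches was not tested. Compared within cluster 1, LPS-primed PB samples were also above PBS-primed ones for Ikbke (0.993 and 12.9 CPM after PBS), Ier3 (454 and 374 against 118 and 173 CPM) and Nfkbia (428 and 448 CPM after PBS). The other 3 overlapped there. Birc3 stood at 235 and 36.0 CPM after LPS and 58.0 and 97.6 CPM after PBS, Nfkbiz at 277 and 193.8 CPM against 218 and 194.5 CPM, and Traf1 at 38.2 and 2.48 CPM against 0.397 and 7.58 CPM.

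**Figure D4:**
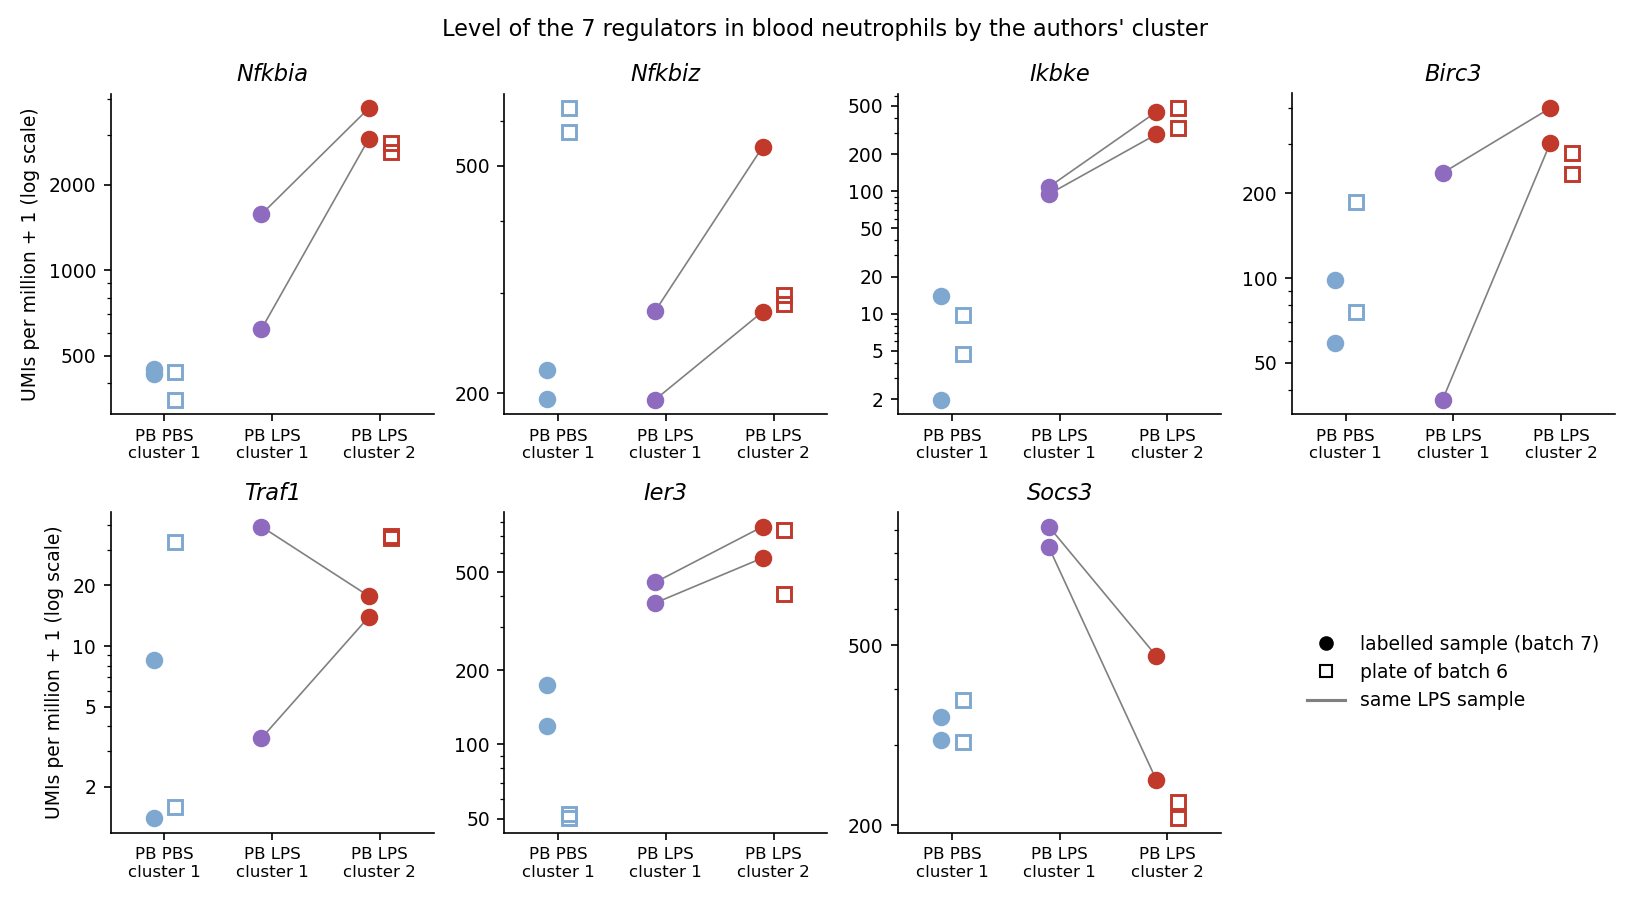
Level of each regulator (CPM plus 1, log axis) in PBS-primed blood cells of the authors' cluster 1 and LPS-primed blood cells of clusters 1 and 2, with filled circles for batch 7, squares for batch 6 and lines joining the clusters of an LPS sample. Nfkbia and Ikbke rise from cluster 1 to cluster 2 in both LPS samples, whereas Socs3 falls from 913 and 822 CPM to 472 and 250.3 CPM.

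In marrow most cells lay in cluster 0, and a few in cluster 1. The 7 cluster 1 cells of PBS-primed BM sample 1 held 85.9% of its Socs3 UMIs and 12.3% of all its UMIs, and 1 cell of the sample held 84.8%. In PBS-primed BM sample 2 the 6 cluster 1 cells held 9.68% of Socs3 UMIs. Within cluster 0, Socs3 stood at 4.58 and 10.51 CPM after PBS and 80.3 and 80.9 CPM after LPS, a wider gap than over all marrow cells. On 2 plates of batch 6 the cluster 1 cells of PBS-primed marrow, 11 and 8 in number, held 85.6% and 77.4% of the Socs3 UMIs.

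The rest of the pathway was read from 10 gene lists. For comparison, 3.47% of all genes tested were called higher in blood (294 genes, and 140 with library size alone). In marrow 0.0708% were called in either direction. In blood, LPS raised 2 of 6 IκB proteins, both of them members (median log2 change of the list 2.33, against −0.11 over all genes). None of the 5 Rel subunits was called (median 1.89), nor any of 14 TRAF and adaptor proteins (median −0.27). Of 12 kinases tested, Ikbke and Map3k8 rose. Map3k8, the kinase upstream of ERK in this pathway, went from 55.7 and 6.48 to 295 and 226 CPM (log2 change 3.95, SE 0.86, edgeR adjusted p = 0.029). Of the 4 genes listed as IAP proteins and Cflar, Birc3 rose. Its neighbour and close relative Birc2 stood at 44.8 and 53.4 CPM after PBS and 34.5 and 14.1 CPM after LPS (log2 change −0.12, SE 1.36).

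Of 12 ubiquitin editors and other brakes, 2 rose. Irak3, an inactive kinase that dampens receptor signalling, went from 23.0 and 8.02 to 327 and 286 CPM in blood (log2 change 5.19, SE 0.65, edgeR adjusted p = 0.00088), and its LPS effect differed between blood and marrow by 6.92 (SE 0.84, edgeR adjusted p = 0.0015). N4bp1, a suppressor of NF-κB signalling, had a log2 change of 2.28 (SE 0.40, edgeR adjusted p = 0.0081). Tnfaip3, which encodes the deubiquitinase A20, stood at 44.0 and 13.3 CPM after PBS and 231 and 148 CPM after LPS but was not called (log2 change 3.61, SE 1.30, edgeR adjusted p = 0.19).

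Of 9 receptors tested, 4 rose in blood: Cd14, the LPS coreceptor (4.51, SE 0.71), Tlr2 (3.26, SE 0.71), the decoy receptor Il1r2 (3.11, SE 0.38) and the TNF receptor Tnfrsf1b (2.00, SE 0.43), with edgeR adjusted p between 0.00084 and 0.029. Il1r2 reached 1717 and 2031 CPM from 333 and 489 CPM, and its LPS effect was 3.25 larger than in marrow (SE 0.51, edgeR adjusted p = 0.0079). Of 13 SOCS proteins and other cytokine brakes tested, Cish alone rose, from 0.397 and 0.617 to 52.6 and 124 CPM (8.34, SE 1.64, edgeR adjusted p = 0.016). None of the 12 receptors, kinases and STATs upstream of Socs3 that were tested was called. Of 9 immediate early genes, Ier3 rose and Fos fell, from 3649 and 3511 to 598 and 639.6 CPM (−1.62, SE 0.39, edgeR adjusted p = 0.047). In marrow, over all lists, the phosphatase gene Dusp1 was the only call, lower after LPS (−2.67, SE 0.29, edgeR adjusted p = 0.0058). Of these non-members, Irak3 and Il1r2 were called in all 16 alternatives, and each of the others was lost in at least 1.

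The genes whose levels were most like the members' were sought among 2301 genes of at least 50 CPM, by Pearson's r of log2(CPM + 1) over the 8 samples. The mean profile of the 7 members was most like those of Uba7 (r = 0.98), Tap1, Irgm1, Isg20 and Ifi209 (r = 0.97 each), genes induced by interferon. Isg20 stood in blood at 236 and 190.1 CPM after PBS and 2211 and 2160 CPM after LPS, and 19.97 to 88.6 CPM in marrow. By single member, the nearest genes were Psme2 for Nfkbia (0.99), Ifi211 for Ikbke (0.99), Stat2 for Ier3 (0.98), Il1f9 for Socs3 (0.98), Parp9 for Nfkbiz (0.97), Lrg1 for Birc3 (0.96) and Arl6ip1 for Traf1 (0.94). The 8 samples are 4 groups of 2, so such values mostly follow the order of the groups and are given without a test.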

How the data were processed

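Transcripts of single neutrophils were read by SCRB-seq. Reads were trimmed by the authors with Cutadapt 1.15, aligned to mm9 with STAR 2.6.0a, freed of duplicates by UMI and counted per gene with HTSeq 0.11.2, and cells were filtered. The deposited table holds raw UMI counts of 10970 genes in 1421 cells, of at least 5012 UMIs each. Each of the 95 barcodes was used again on 2 or more of the 17 plates, so cells were identified by plate and barcode. Which gene annotation was used for counting is not given in the sources used here. Cells of batch 7 were matched to samples by name, and those of batch 6 to a group only.

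UMIs were summed per sample. Genes with a UMI in at least 10 cells (9919) were filtered by filterByExpr, scaled by TMM and tested in 1 model of 4 groups with edgeR 4.0.16 (glmQLFit, glmQLFTest) in R 4.3.3. The common dispersion was 1.06. Replicates of a group correlated with r of 0.74 to 0.83 and differed beyond sampling noise (chi-square per degree of freedom 53.3 to 99.6). The model was tested on simulated counts with the same mean per gene in all groups, apart from rises set in LPS-primed PB. These counts were not built to hold the differences between groups in other transcripts. They cannot weigh TMM against library size alone. The alternatives were DESeq2 1.42.0, median-ratio (RLE) factors, library size alone, no filter, cells thinned to 5000 UMIs, the replicate number as a block and each sample left out. Sums of both batches with a batch term, and sums without cells of over 1000 CPM of B or of T or NK cell markers, were chosen after seeing the data. Shares of cells have exact Clopper-Pearson intervals at 95%.

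Members, gene lists and tests were chosen with earlier results of these data known. The text names the 7 members, from each list the genes called in blood or marrow (at most the 4 largest changes), the 5 genes most like the members' mean profile and the nearest gene of each member. Birc2 and Tnfaip3 were named after their values were seen. Promoters come from RefSeq (table of build GRCm38.p6) and gene positions from GENCODE M1 on mm9. Doublets were not called, since cells were picked by pipette.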

Additional observations from a re-analysis of the deposited data

Results flagged for a closer look

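The LPS effect on Nfkbia differed between blood and bone marrow neutrophils by 3.26 on the log2 scale (SE 0.30, edgeR adjusted p = 0.00020). Both LPS-primed PB samples (2768 and 2176 CPM) were above all 6 other samples (258 to 438 CPM), and the difference was called in all 16 alternatives. On the LPS-primed BM plate of batch 6 Nfkbia stood at 133 CPM, below all 4 PBS-primed BM plates of that batch (196 to 283 CPM).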

How the results depend on the processing

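With 2 samples a group, calls rest on few samples. Leaving out each sample in turn gave 2 to 6 members and 146 to 400 genes called for LPS in blood, 0 members and 2 to 28 genes for LPS in marrow, 1 member and 80 to 168 genes for the difference of both effects, 1 member and 108 to 342 genes between PBS-primed tissues and 3 to 5 members and 144 to 382 genes between LPS-primed tissues. Leaving out PBS-primed PB 1 or 2 gave the 2 members, and leaving out LPS-primed BM 2 gave the 3. A group left with 1 sample is assumed to vary like the others.

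In the order of these 5 comparisons, DESeq2 called 1057, 196, 500, 962 and 951 genes, against 334, 6, 127, 221 and 316 with edgeR, and sums of both batches with a batch term called 651, 27, 203, 416 and 532. DESeq2 called 3 members for LPS in marrow and 2 between PBS-primed tissues. Both batches gave 1 member in marrow and 2 for the difference of effects. Library size alone gave 2 members in blood, 2 between PBS-primed tissues, 10 genes in marrow and 64 for the difference of effects. Between PBS-primed tissues, 2 members were also called with thinned cells and without cells bearing lymphocyte markers. In marrow, 15 genes were called without the filter, 15 with thinned cells and 13 with the replicate block.

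Signs that turned belonged to changes that were not called: Nfkbia in marrow to −0.078 with thinned cells and −0.10 with both batches, Ikbke in marrow to −3.87 without LPS-primed BM 2 (from −3.87 to 3.47 over the samples left out), and, for the difference of effects, Nfkbiz to −0.079 and Birc3 to −0.40 with library size alone and Socs3 to 0.13 without PBS-primed BM 2 (from −1.16 to 0.13 over the samples left out). The cause of these changes was not tested.

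Same-numbered samples showed no shared deviation from their group means (r of −0.02 to 0.01 over 8478 genes). With 2 noisy samples a group, this cannot tell whether same-numbered samples came from the same mouse or run. With the replicate block, Socs3 in blood was called (1.57, edgeR adjusted p = 0.031), as was Birc3 between LPS-primed tissues (1.91, adjusted p = 0.045), and the members called in the other 3 comparisons kept their number.

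The median difference in the share of cells with a UMI over the members, LPS-primed minus PBS-primed blood, was 24.5 percentage points with cells thinned to 5000 UMIs, 15.7 with 2500 UMIs and 21.0 without thinning.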
